A study of Mus musculus with 4 samples.

Results

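The genes described here encode the ligands and receptors of axon guidance, measured in forelimbs of mouse embryos at stage E11.5. They were taken by symbol from the annotation of the array: the semaphorins, plexins, neuropilins, Eph receptors, ephrins, Slits, Robo receptors, netrins, Dcc, Neo1 and Unc5 receptors. Slitrk genes were left out, and so was Unc5cl, which is not one of the lettered Unc5 receptors. The rule found 68 of the 23185 named genes, 34 ligands and 34 receptors, each with 1 probe set. Wild-type forelimbs were compared with forelimbs of Shox2 knockout embryos. All were of the C57BL/6 strain, and the labels name no treatment. Each genotype had 2 arrays, numbered 48 and 50 in their titles, and every array held pooled RNA. The sample labels give 3 to 4 forelimbs per pool, while the series design gives 3 to 4 embryos from 2 pregnancies, so it is unclear how many embryos a pool stands for. The kind of Shox2 allele and the extent of the deletion are not given in the sources used here. Whole limbs were pooled, so a difference can reflect fewer cells of a type as well as less RNA per cell, and these cannot be told apart in bulk samples.

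Axon guidance molecules steer growing nerve fibres by attraction and repulsion. Secreted class 3 semaphorins act through complexes of a neuropilin and a plexin, most other semaphorins bind plexins directly, ephrins are cell-bound ligands of Eph receptors, Slits repel cells through Robo receptors, and netrins attract through Dcc and repel through Unc5 receptors. The same molecules also sort mesenchymal cells, pattern vessels and guide migrating muscle precursors. In the limb bud at this stage, spinal nerves and vessels are growing into a mesenchyme that itself makes many of these cues.

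Of the labelled tissue, all 10 genes of the limb mesenchyme list were detected above the filter for testing described next, from Fgf10 at percentile 67.1 among probe sets to Prrx1 at 99.8. Genes of other cells were bright too (the endothelial Cdh5 at percentile 96.9, the embryonic globin Hba-x at 97.8), and brightness does not give the share of a cell type. Shox2, the targeted homeobox gene, had log2 levels of 9.58 and 8.88 in the knockout pools against 10.57 and 10.37 in wild-type pools, that is, -1.24 ± 0.21 apart (log2, SE, n = 2 each). With limma this did not pass over all genes (adjusted p = 0.322), and where its probes lie relative to the deleted part is unknown here. Of 4 sex-linked genes measured, Eif2s3y, Uty and Kdm5d, which lie on the Y chromosome, were higher in both knockout pools by 4.29, 4.15 and 3.48 (log2 differences). Xist was lower by -1.01. The Y-linked genes read 5.08 to 5.56 in the wild-type pools, under the filter level, and 8.83 to 9.65 in the knockout pools. Embryo sex was thus not matched between the genotypes, and for any gene here its part cannot be told apart from that of genotype. The lists for distal limb, endothelium and neurons are described here. All lists were chosen with earlier results of these data known, and none was tested as a whole. Median log2 differences of the other tissue lists ran from -0.11 (red cells) to 0.15 (limb mesenchyme), with macrophages at -0.013. All 12 genes of the distal limb list averaged higher in the knockout pools (median 0.45 on the log2 scale). Among them were Hoxa13, Hoxd13, Sall1, Hoxa11, Lmx1b and Msx1, the last of which is in the limb mesenchyme list too. The summed linear level of the distal limb list was 5575 and 5773 in the knockout against 3951 and 4124 in the wild type. In the endothelial list 9 of 10 genes were below their wild-type means, the median being -0.25 and the summed level 5354 and 5713 against 6013 and 6175. Of the 12 neuronal genes 5 (Tubb3, Elavl3, Elavl4, Nefm and Prph) were below the filter, while Dcx stood at percentile 80.7 and Gap43 at 73.0. Of the 7 tested neuronal genes 6 were higher (median 0.10). In 3 of the 7 both knockout values lay above both wild-type values, against 22.1% of all genes tested. The sign was the same within both array numbers for 4 of the 7, against 63.1% of all genes. The summed level of all 12 was 1332 and 1509 in the knockout against 1307 and 1365 in the wild type, so knockout pool 48 lay between the wild-type pools.

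Nearly all guidance genes were bright enough to be tested. A gene was tested if it averaged a log2 level of at least 5.60, the 40th percentile among probe sets, which 14095 named genes did. Of the 68 guidance genes 66 did. The exceptions were Robo3, the receptor of commissural axons, which averaged 5.29 (percentile 16.5), and Epha6, which averaged 5.49 (percentile 33.6). Mean levels ran up to 11.93, and 48 of the 68 reached percentile 60 and 22 reached percentile 90. Probes differ in brightness, so these levels place a gene in the range of the array and do not rank transcripts against each other.

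No guidance gene passed the test between the genotypes when the arrays were not paired by number. Limma compared the 2 knockout with the 2 wild-type arrays gene by gene. Of the 66 guidance genes 0 had an adjusted p under 0.05 over all 14095 genes, where 3 of all genes (0.0213%) were called. Those 3 were the Y-linked Eif2s3y, Uty and Kdm5d. The lowest adjusted p of a guidance gene in limma was 0.322. At an unadjusted p under 0.05 there were 7 guidance genes, 10.6% of those tested, against 10.2% of all genes. Of these, 2 were higher in the knockout (Epha7 and Sema3c), where 5.19% of all genes were, and 5 lower (Ntn1, Ephb1, Nrp1, Plxna2 and Plxnd1), where 5.0% of all genes were. The share at an unadjusted p under 0.05 was thus near that of the whole array. None differed 1.5-fold or more, against 0.404% of all genes. The largest difference was that of Ntn1, 1.40-fold.

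Among the guidance genes the genotypes did not overlap, meaning that both knockout values lay on one side of both wild-type values, in 28 of 66 (42.4%), against 42.0% of all genes. In 17 of them the knockout was higher (25.8%, against 22.1% of all genes) and in 11 lower (16.7%, against 19.9%). The median log2 difference of the 66 was 0.028, against -0.00098 over all genes tested, and the median size regardless of sign was 0.078, against 0.083. Ligands had a median of 0.044 and receptors of 0.015. Compared only within number 48 or only within number 50, the 66 had medians of 0.031 and 0.013. The sign of a gene's difference was the same within both numbers for 41 of the 66 (62.1%), against 63.1% of all genes.

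**Figure D1:**
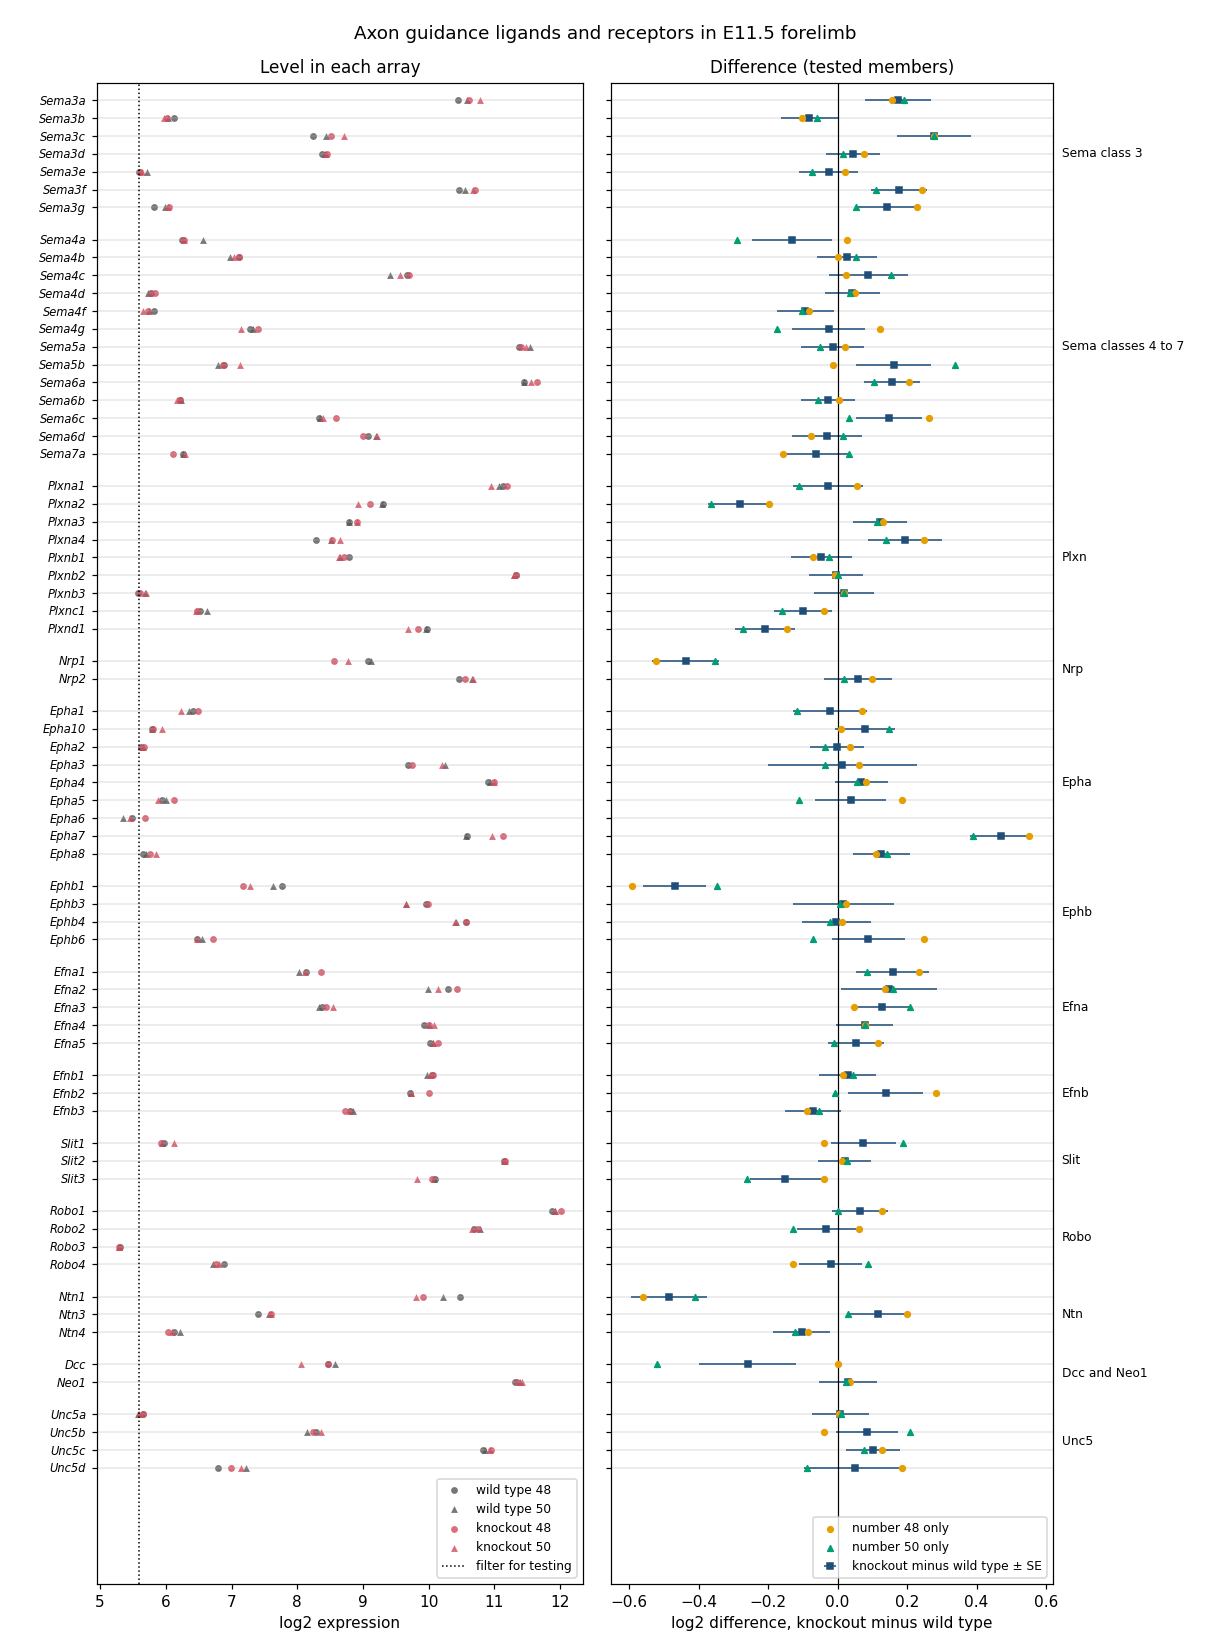
Left, log2 expression of all 68 guidance genes in each of the 4 arrays, ordered by family; the dotted line marks the filter at 5.60. Right, the log2 difference, knockout minus wild type, of the 66 tested genes with its standard error (n = 2 pools per genotype), and the differences within arrays numbered 48 and 50 alone. Most differences sit near 0, with Epha7 at 0.47 and Ntn1, Ephb1 and Nrp1 at -0.49, -0.47 and -0.44.

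The sequences before the start sites of Epha7, Ephb1 and Nrp1 are shown because these genes had the smallest unadjusted p of the family members with an entry in the RefSeq promoter table (build GRCm38.p6). Each run is 250 bases ending just before the annotated start (the last start in the direction of transcription where several are listed), 5′ to 3′ on the gene's strand. The annotated genes begin earlier for Epha7 (28813066) and Nrp1 (128358591). The whole Nrp1 window and the end of the Epha7 window therefore lie inside the gene. Capitals mark TAAT on either strand (TAAT or ATTA), the core recognised by homeodomain proteins, the class to which SHOX2 belongs.
Epha7, chr4:28812895-28813144, plus strand: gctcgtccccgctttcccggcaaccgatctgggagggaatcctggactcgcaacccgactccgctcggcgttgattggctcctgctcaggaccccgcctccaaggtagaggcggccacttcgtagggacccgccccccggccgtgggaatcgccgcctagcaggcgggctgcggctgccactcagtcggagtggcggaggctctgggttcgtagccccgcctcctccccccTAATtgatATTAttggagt
Ephb1, chr9:102354694-102354943, minus strand: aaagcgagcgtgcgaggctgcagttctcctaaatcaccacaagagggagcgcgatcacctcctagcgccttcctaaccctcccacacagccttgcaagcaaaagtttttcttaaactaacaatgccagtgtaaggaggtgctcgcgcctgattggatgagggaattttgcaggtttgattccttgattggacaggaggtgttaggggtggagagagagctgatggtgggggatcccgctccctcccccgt
Nrp1, chr8:128358823-128359072, plus strand: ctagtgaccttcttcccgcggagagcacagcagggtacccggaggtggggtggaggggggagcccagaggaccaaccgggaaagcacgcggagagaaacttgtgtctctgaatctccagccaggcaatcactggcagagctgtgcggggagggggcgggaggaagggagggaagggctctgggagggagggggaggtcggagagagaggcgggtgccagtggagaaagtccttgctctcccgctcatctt

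The Epha7 window held a TAAT that begins 19 bases and an ATTA that begins 11 bases before the start used, both inside the annotated gene. The windows of Ephb1 and Nrp1 held neither. Of the 58 guidance genes with an entry, 20 (34.5%) held TAAT on either strand, against 55.4% of 27025 genes with an entry. The guidance windows were also richer in G and C, with a median of 65.4% against 52.0%, and in CG dinucleotides, with a median of 16 against 5. The longer palindrome TAATNNNATTA, with any base at N, was found in 0 of the 58 windows and in 0.477% of all. A match of letters is a description of the sequence, not evidence of binding.

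Secreted class 3 semaphorins had the family median farthest above 0 among the families with 5 or more members tested, at 0.14 over 7 genes, 5 of them higher. It was 0.16 within number 48 and 0.054 within number 50. Sema3c (Entrez Gene 20348), a cue of vessel and outflow tract growth, read 8.52 and 8.71 in the knockout arrays numbered 48 and 50, against 8.24 and 8.44 in the wild type. The genotypes did not overlap, and within each number the knockout was higher by 0.28. This difference of 0.28 ± 0.11 (log2, SE, n = 2 each) had an adjusted p of 0.456 (limma). Sema3f (20350), a repellent that acts through Nrp2, read 10.70 and 10.67 against 10.46 and 10.56, a difference of 0.18 ± 0.082 (limma, adjusted p = 0.524). Sema3a (20346), the repellent of Nrp1-bearing axons, read 10.61 and 10.78 against 10.46 and 10.58, a difference of 0.17 ± 0.096 (limma, adjusted p = 0.591). In both genes every knockout pool was above every wild-type pool. Sema3g (218877) read 6.05 and 6.03 against 5.83 and 5.98, a difference of 0.14 near the dim end of the range. Sema3d, the direct neighbour of Sema3a among coding genes, differed by 0.046, Sema3b by -0.081 and Sema3e, the ligand of Plxnd1, by -0.026 at a mean level of 5.64.

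Semaphorins of classes 4 to 7, mostly membrane-bound, showed no common direction: 6 of 13 were higher and 7 lower, the median was -0.014, and 0 had an unadjusted p under 0.05. Sema6a (20358), a transmembrane ligand of plexin-A receptors, read 11.65 and 11.56 in the knockout and 11.45 on both wild-type arrays, a log2 difference of 0.16 ± 0.081 (limma, adjusted p = 0.571). Sema6c (20360) read 8.59 and 8.39 against 8.33 and 8.35. Its excess was 0.26 within number 48 and 0.033 within number 50, so 1 knockout pool carried most of it. Sema4f (difference -0.093) was the only other gene of these classes without overlap. Sema5a stood at percentile 98.1 with a difference of -0.014, and Sema4c, Sema6d and Sema4b differed by 0.088, -0.030 and 0.027. Sema5b was higher by 0.34 within number 50 and differed by -0.014 within number 48, and Sema4a was lower by -0.29 within number 50 and differed by 0.028 within number 48. The dimmer Sema4d, Sema6b and Sema7a and the gene Sema4g lay between -0.063 and 0.043.

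Neuropilins are the ligand-binding partners of plexins, and 1 of the 2 was lower in the knockout pools. Nrp1 (18186), a receptor for class 3 semaphorins and a coreceptor for VEGF in endothelium, read 8.56 and 8.77 in the knockout pools against 9.08 and 9.12 in the wild-type pools. Both knockout pools were below both wild-type pools, within number 48 by -0.52 and within number 50 by -0.35. Its mean was 8.66 ± 0.15 (SD, n = 2) for the knockout pools and 9.10 ± 0.030 for the wild-type ones, a log2 difference of -0.44 ± 0.097 (SE), 1.35-fold lower, at place 131 of all genes by unadjusted p (limma, adjusted p = 0.322). Nrp2 (18187) read 10.56 and 10.67 against 10.46 and 10.65, a difference of 0.059 ± 0.099 with overlapping genotypes. Whether the 2 neuropilins differ in their response was not tested.

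Of the plexins, the signalling receptors of semaphorins, 6 of 9 were lower, with a median of -0.028. Plxna2 (18845), a receptor of Sema6a and partner of neuropilins, read 9.11 and 8.93 in the knockout pools against 9.30 and 9.29 in the wild-type pools, a log2 difference of -0.28 ± 0.091 (SE; limma, adjusted p = 0.405). Plxnd1 (67784), the vascular receptor of Sema3e, read 9.84 and 9.69 against 9.98 and 9.97, a difference of -0.21 ± 0.086 (limma, adjusted p = 0.483). For both genes the wild-type pools almost coincided and the knockout pools lay below them, farther in number 50 (-0.37 and -0.27) than in number 48 (-0.20 and -0.15). Plxna4 (243743), a receptor of sensory and sympathetic axons, went the other way, reading 8.53 and 8.65 against 8.28 and 8.52, a difference of 0.19 ± 0.11 (limma, adjusted p = 0.590). Plxna3 (18846), which is X-linked, read 8.92 and 8.90 against 8.79 on both wild-type arrays, a difference of 0.12 ± 0.077. Plxnc1, the receptor of Sema7a, differed by -0.099 without overlap. The others overlapped: Plxna1 differed by -0.028, Plxnb1 by -0.046, Plxnb2 (percentile 97.8) by -0.0034 and Plxnb3 by 0.019.

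Nrp1 and Plxnd1 are both strongly expressed in endothelium, and the endothelial markers were lower in the same knockout pools. Of the 10 endothelial genes 7 were lower without overlap, against 19.9% of all genes. These 7 included Kdr (-0.28), Tek (-0.27) and Emcn (-0.25), while Egfl7 differed by 0.12. Other guidance genes that act in vessels ranged widely. Ephb1 and Ntn1, described further on, were lower without overlap (-0.47 and -0.49), and Sema3c was higher without overlap (0.28). Robo4, an endothelial receptor of the Robo family, differed by -0.020, Ephb4, the venous receptor, by -0.0039, and Efnb2, its arterial ligand, by 0.14. The part of endothelium in the values of these genes was not tested.

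**Figure D2:**
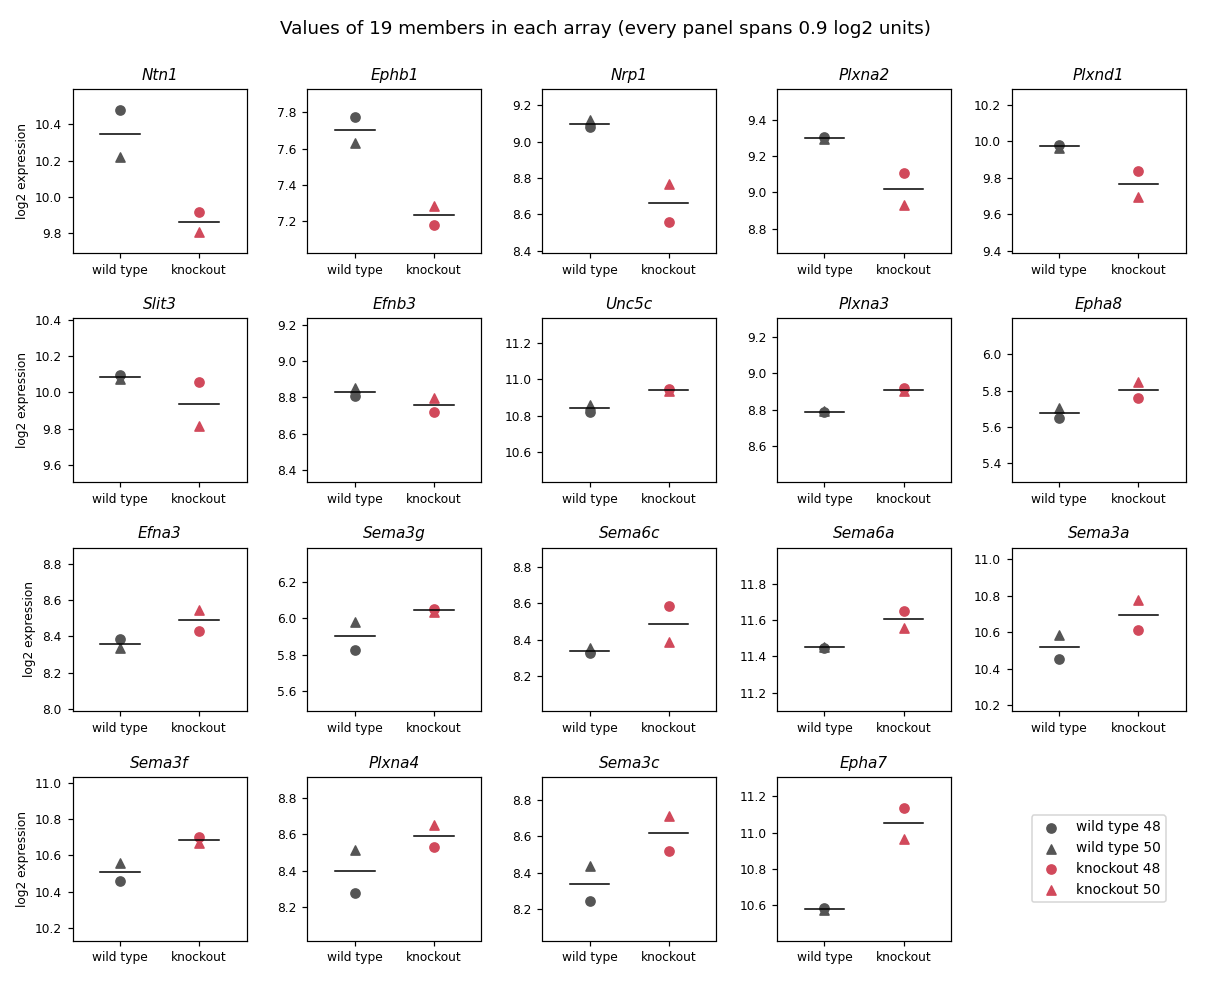
Log2 expression of the 19 guidance genes described in full, ordered from the most negative to the most positive difference; circles are arrays numbered 48, triangles arrays numbered 50, grey wild type, red knockout, and lines group means (n = 2). Every panel spans 0.9 log2 units, so the steps of Ntn1, Ephb1, Nrp1 and Epha7 can be compared with smaller ones such as Efnb3 (-0.070).

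Eph receptors of class A held the member with the smallest unadjusted p. Epha7 (13841), a receptor of limb mesenchyme and of developing nerve cells, read 11.14 and 10.97 in the knockout pools against 10.59 and 10.58 in the wild-type pools. Both knockout pools were clearly above the wild-type pools, by 0.55 within number 48 and 0.39 within number 50. The mean was 11.05 ± 0.12 (SD, n = 2) for the knockout pools and 10.58 ± 0.0069 for the wild-type ones, a log2 difference of 0.47 ± 0.090 (SE), 1.39-fold higher, at place 56 of all genes by unadjusted p (limma, adjusted p = 0.322). The distal limb list, chosen with earlier results of these data known, was higher in the same pools. In it 11 of 12 genes were higher without overlap, against 22.1% of all genes. Hoxa13 and Hoxd13 were higher by 0.98 and 1.77. The part of this list in the Epha7 value was not tested.

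The other tested class A receptors differed by at most 0.13 between the genotypes. Epha4 (13838), which directs motor axons into the dorsal limb, read 10.99 in both knockout pools and 10.91 and 10.94 in the wild type, a log2 difference of 0.069 ± 0.077. Epha3 (13837) differed by 0.014 ± 0.21 between the genotypes but by 0.51 between the array numbers: it read 9.74 and 9.68 on the arrays numbered 48 and 10.21 and 10.24 on those numbered 50. This difference between numbers was the widest of any guidance gene. Epha8 (13842) read 5.76 and 5.85 against 5.65 and 5.70, close to the filter. Epha10 differed by 0.078, Epha5 by 0.038, Epha1 by -0.023 and Epha2 by -0.00098, all at mean levels under 6.5. Over the 8 tested class A receptors 6 were higher and the median was 0.053.

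Class B held a gene with lower values in both knockout pools. Ephb1 (270190), a receptor of B-type ephrins in nerve and endothelial cells, read 7.18 and 7.28 in the knockout pools against 7.77 and 7.63 in the wild-type pools. The genotypes were far apart compared with the spread within each, the knockout being lower by -0.59 within number 48 and by -0.35 within number 50. Its mean was 7.23 ± 0.073 (SD, n = 2) for the knockout pools and 7.70 ± 0.10 for the wild-type ones, a log2 difference of -0.47 ± 0.091 (SE), 1.38-fold lower, at place 60 of all genes by unadjusted p (limma, adjusted p = 0.322). The other receptors of the class on the array, Ephb3, Ephb4 and Ephb6, overlapped. Ephb2 was not among the named genes. Ephb3 read 9.99 and 9.66 against 9.96 and 9.65, following the array number and not the genotype, with a genotype difference of 0.017. Ephb6, whose kinase domain is inactive, differed by 0.089.

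Ephrins are the ligands of these receptors. All 5 class A ephrins, which are anchored to the membrane by a lipid, had higher mean values in the knockout, with a median of 0.13, but 0 had an unadjusted p under 0.05 and only Efna3 (13638) showed no overlap, reading 8.43 and 8.54 against 8.38 and 8.33. Efna1, Efna3 and Efna4, which follow each other along chromosome 3 with no other coding gene between them, differed by 0.16, 0.13 and 0.078. Efna2 differed by 0.15, with values of 10.43 and 10.15 against 10.29 and 9.99, so that it varied more by number (-0.29) than by genotype. Efna5 differed by 0.054. Of the transmembrane class B ephrins, Efnb3 (13643) read 8.72 and 8.80 against 8.81 and 8.85, a difference of -0.070 ± 0.080. Efnb2 read 10.002 and 9.73 against 9.72 and 9.73, where knockout pool 48 alone stood apart. Efnb1, which is X-linked, differed by 0.029. The 3 X-linked members (Efnb1, Plxna3 and Plxnb3) were all measured slightly higher, between 0.019 and 0.12, in pools that also differed in Xist and Y-linked signal, whose part in these values was not tested.

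Slit ligands and tested Robo receptors differed by at most 0.15. Slit2 (20563), the Slit at percentile 97.1, read 11.16 and 11.17 in the knockout pools against 11.15 and 11.14 in the wild-type pools, a log2 difference of 0.020 ± 0.077. Although its genotypes did not overlap, the gap was smaller than its standard error. Slit3 (20564) read 10.06 and 9.82 against 10.10 and 10.08, a difference of -0.15 ± 0.10 (limma, adjusted p = 0.656) that was -0.041 within number 48 and -0.26 within number 50. Slit1 averaged 5.99 and differed by 0.074. Robo1 and Robo2, adjacent receptor genes on chromosome 16, stood at percentiles 99.1 and 95.1 and differed by 0.064 ± 0.081 and -0.032 ± 0.085. The genotypes overlapped in all 4 Robo genes.

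Netrins showed the largest difference of the guidance genes, in Ntn1 (18208), a secreted attractant and repellent that also acts in vessels and muscle. It read 9.92 and 9.81 in the knockout pools against 10.48 and 10.22 in the wild-type pools. Both knockout pools were lower, by -0.56 within number 48 and -0.41 within number 50. The mean was 9.86 ± 0.079 (SD, n = 2) for the knockout pools and 10.35 ± 0.19 for the wild-type ones, a log2 difference of -0.49 ± 0.11 (SE), at place 148 of all genes by unadjusted p (limma, adjusted p = 0.322). Ntn3 read 7.60 on both knockout arrays and 7.41 and 7.57 in the wild type, a difference of 0.11, and Ntn4, a netrin of basement membranes, differed by -0.10, both without overlap.

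The receptors of netrins gave other values than Ntn1, though the difference between them was not tested. Dcc (13176), the attractive receptor, read 8.47 and 8.06 in the knockout pools against 8.47 and 8.58 in the wild-type pools. Within number 48 the genotypes differed by 0.0015, and the difference of -0.26 ± 0.14 (limma, adjusted p = 0.585) came from knockout pool 50. Neo1, a relative of Dcc that binds netrins and repulsive guidance molecules, stood at percentile 97.9 and differed by 0.030 ± 0.083. Of the repulsive receptors, Unc5c (22253) read 10.95 and 10.94 against 10.82 and 10.86, a difference of 0.10 ± 0.077 (limma, adjusted p = 0.696). Unc5b, Unc5d and Unc5a differed by 0.084, 0.049 and 0.0071 with overlapping genotypes. Unc5d also varied more by number (0.29).

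Many guidance genes differed as much between the array numbers as between the genotypes. The median size of the difference between numbers was 0.080, against 0.078 between genotypes, and 30 of the 66 differed more by number. Over all genes those medians were 0.080 and 0.083.

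**Figure D3:**
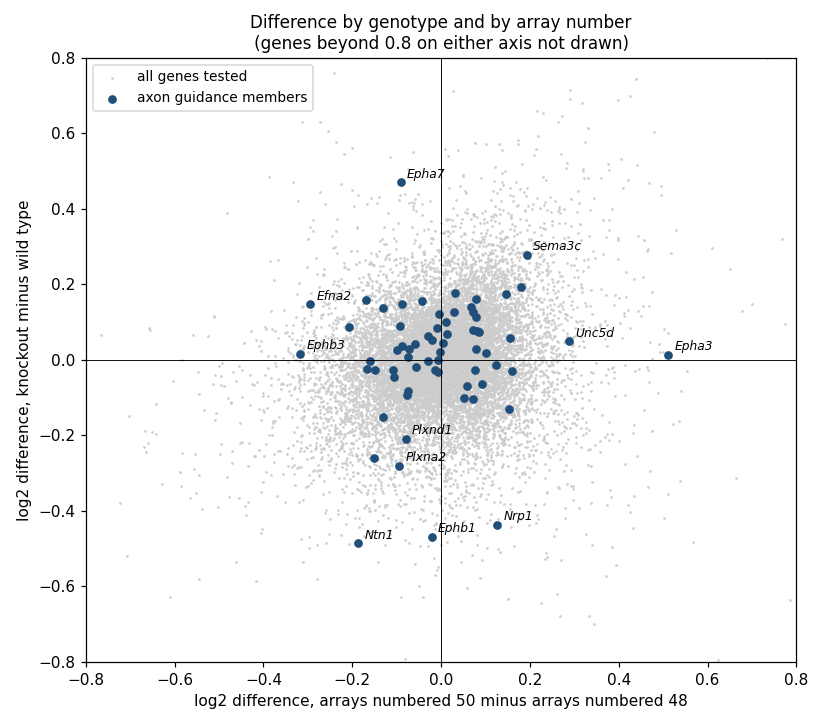
Log2 difference between genotypes (vertical) against the log2 difference between arrays numbered 50 and 48 (horizontal) for the 66 guidance genes, over all 14095 genes tested in grey (41 beyond the axes are not drawn). Epha7, Ntn1, Ephb1 and Nrp1 lie far out along the genotype axis, while Epha3 lies at 0.51 along the number axis with a genotype difference of 0.014.

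Genes that work with these ligands and receptors were also compared. The list of 68 cofactors, further guidance ligands and intracellular effectors, such as the collapsin response mediators, had 64 genes on the array and 61 tested. Of these, 32 were higher and 29 lower, the median difference was 0.0054, and 0 passed in limma over all genes. At an unadjusted p under 0.05 there were 2 of 61, where 10.2% of all genes were. Ablim3, an actin-binding protein, read 7.13 and 7.30 in the knockout pools against 6.64 and 7.001 in the wild-type pools, a difference of 0.40 ± 0.13 (limma, adjusted p = 0.406). Rnd2 read 5.61 and 5.66 against 6.5 and 5.83, a difference of -0.53 ± 0.20 (limma, adjusted p = 0.441) that was -0.89 within number 48 and -0.18 within number 50.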

How the data were processed

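The authors deposited 1 table of log2 expression per probe set for 4 arrays hybridised with biotinylated cRNA, per the labels. Once sorted, 3 columns of that deposited table were the same and the other (knockout 48) was at most 0.00171 away, so the arrays had been quantile normalized. Array platform, background correction and probe summarisation are not given in the sources used here. Of 25206 probe sets, 23185 had 1 gene name, 0 several and 2021 none. No further normalization was applied. Genes at or above percentile 40 were compared with limma 3.58.1 (lmFit, eBayes, two-sided, no covariate) in R 4.3.3, with Benjamini-Hochberg adjustment over all 14095 genes and a threshold of 0.05. The procedure was tested on simulated data with independent errors and with differences larger than that of any guidance gene. That test does not cover smaller differences or errors shared by arrays of the same number. P-values measure the spread between pools only. There is no read depth: the 2 arrays per genotype, with 2 residual degrees of freedom, limit precision.

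Members and lists were chosen with earlier results of these data known. Full values were given to tested members without overlap, the first 16 by unadjusted p and the first of any family still missing, 19 in all. Of the pathway list, genes at an unadjusted p under 0.05 were named. Other members, markers and Slit2 were named after their values were seen. Summed levels are sums of 2 to the power of the log2 value. Lists for muscle progenitors, macrophages, ectoderm, Schwann cell precursors, red cells and limb mesenchyme had median log2 differences of -0.057, -0.013, 0.097, -0.073, -0.11 and 0.15. Alternatives were 2 other filters, 2 normalizations, 2 variance models, 2 sets of features, a replicate block and each array left out. Promoter sequences and neighbouring genes came from RefSeq, build GRCm38.p6. Python 3.11.15 and matplotlib 3.10.9 made the figures.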

Additional observations from a re-analysis of the deposited data

How the results depend on the processing

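The 4 arrays and the signal floor of the array limit all values. Of 13 alternatives, 12 called 0 guidance genes, as with all 4 arrays and no block. The labels do not say what the numbers 48 and 50 stand for. Taking them as a replicate block called 382 genes against 3, and 4 guidance genes (limma, adjusted p): Ntn1 (-0.49, 0.0186), Epha7 (0.47, 0.0211), Ephb1 (-0.47, 0.0263) and Nrp1 (-0.44, 0.0266). It gave 11 guidance genes at an unadjusted p under 0.05 against 7, 16.7% of 66 beside 18.6% of all genes, and called Shox2 (-1.24, adjusted p = 0.00167). Deviations from the group means on same-numbered arrays correlated at 0.388 across genes, which is a hint from the data and not the design.

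Leaving out X- and Y-linked genes left 0 genes called (1358 of 13608 at an unadjusted p under 0.05). The guidance median was 0.047 with the filter at percentile 60, and between 0.011 (without knockout array 48) and 0.036 (without knockout array 50) with an array left out. With each array left out, 4 to 5 genes were called, 43 to 49 guidance genes showed no overlap (65.2% to 74.2%, against 68.4% to 72.3% of all genes), which fewer arrays make easier, 5 to 10 guidance genes had an unadjusted p under 0.05 (7.58% to 15.2%, against 5.97% to 10.1% of all genes), and Shox2 ran from -1.59 (adjusted p = 0.0349, without knockout array 48) to -0.89. Between 11 and 12 of the 66 differences changed sign. The 19 given in full could not do so, because genes without overlap keep their sign whichever array is left out. Without an array Epha7 ran from 0.39 to 0.56, Ephb1 from -0.54 to -0.40, Nrp1 from -0.54 to -0.33 and Ntn1 from -0.62 to -0.35. Of the 19 differences, 10 moved by over 1.5 times with some array left out. Those that moved farthest were Slit3 (-0.030 without knockout array 50), Sema6c (0.047 without knockout array 48), Plxna4 (0.076 without wild-type array 48), Sema3g (0.064 without wild-type array 48) and Efnb3 (-0.032 without knockout array 48).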

Other observations

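Relatives of the guidance families that the selection by name left out were also measured. Of 12 such genes (Ntn5, Ntng1, Ntng2, Plxdc1, Plxdc2, Unc5cl and Slitrk1 to Slitrk6), 10 were bright enough to be tested, 6 with higher and 4 with lower values in the knockout and a median log2 difference of 0.026. In limma 0 passed over all genes, and at an unadjusted p under 0.05 there was 1 of 10, a share near the 10.2% of all genes. That gene was Slitrk1, a transmembrane protein of developing synapses, which read 6.29 and 6.17 in the knockout pools against 5.81 and 5.96 in the wild-type pools, a difference of 0.34 ± 0.094 (SE, n = 2 pools per genotype; limma, adjusted p = 0.368). Plxdc2, a membrane protein that is not a plexin despite its name, read 10.78 and 10.92 against 10.98 and 11.14, a difference of -0.21 ± 0.095 (limma, adjusted p = 0.519). Slitrk6, at percentile 96.4, differed by -0.028.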
